A study of Mus musculus with 7 samples.

Results

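The RNA of 9 genes of TGF-β signaling was followed in mouse glioblastoma (GBM): the ligand genes *Tgfb1*, *Tgfb2*, *Tgfb3* and *Inhba*, the latent TGF-β binding protein genes *Ltbp1* and *Ltbp2*, the receptor genes *Tgfbr1* and *Tgfbr2*, and the target gene *Tgfbi*. They were chosen by symbol, with earlier results of these data known, and all 9 were present among the 49492 genes of the count table. Bulk RNA-seq covered 2 GBM models, both labelled as GBM of C57BL/6 mice at 3 months of age. In NPCTKO (4 samples), embryonic neural precursors were electroporated in utero with Cas9 and guides against 3 tumor suppressor genes, *Trp53* and *Nf1* among them, together with an EGFP or DsRed cassette that labels their progeny, and EGFP+ or DsRed+ cells were sorted from the dissociated tumor. In NSCHRas-shp53 (3 samples), a lentivirus carrying a *Trp53* shRNA and constitutively active human HRAS was delivered to the ventricular-subventricular zone in adult mice, and whole tumor tissue was used without sorting. The sources used here do not say which reporter each sorted sample carried or whether each sample was its own mouse, so the p-values measure the spread between these samples, which may be technical. Model and preparation changed together and cannot be told apart.

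TGF-β is secreted as an inactive complex with its own propeptide, which latent TGF-β binding proteins tether to the extracellular matrix and which integrins or proteases open. The free ligand binds the type II receptor encoded by *Tgfbr2*, which phosphorylates the type I receptor encoded by *Tgfbr1*, and SMAD2 and SMAD3 then enter the nucleus with SMAD4. Activin A, the dimer of the *Inhba* product, signals to the same SMADs through its own receptors, and in the brain TGF-β1 is known as a factor on which microglia depend.

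Of the 9 genes, *Inhba*, *Ltbp1* and *Ltbp2* were called different between the models, so the sequences at their start sites are shown. Each runs from 250 bases before to 50 bases after the start, 5′ to 3′ on the gene's strand, from RefSeq (GRCm38.p6, the same coordinates as mm10). Capitals mark matches on either strand to the CRE element TGACGTCA, the SMAD element CAGAC and the TATA box TATAAA. The windows are chr13:16011601-16011900 on the plus strand for *Inhba*, chr17:75005279-75005578 on the plus strand for the upstream start of *Ltbp1*, and chr12:84876442-84876741 on the minus strand for *Ltbp2*.
Inhba: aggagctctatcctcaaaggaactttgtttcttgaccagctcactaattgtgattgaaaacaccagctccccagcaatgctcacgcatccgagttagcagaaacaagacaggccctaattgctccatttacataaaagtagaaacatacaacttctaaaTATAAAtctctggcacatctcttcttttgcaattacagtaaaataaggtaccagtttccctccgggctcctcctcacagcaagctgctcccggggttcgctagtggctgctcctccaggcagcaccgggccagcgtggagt
Ltbp1: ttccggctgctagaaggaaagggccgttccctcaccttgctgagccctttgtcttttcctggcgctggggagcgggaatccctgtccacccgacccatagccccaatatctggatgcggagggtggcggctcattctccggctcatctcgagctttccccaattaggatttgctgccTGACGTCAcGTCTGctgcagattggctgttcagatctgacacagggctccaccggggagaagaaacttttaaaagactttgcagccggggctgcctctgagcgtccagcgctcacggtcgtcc
Ltbp2: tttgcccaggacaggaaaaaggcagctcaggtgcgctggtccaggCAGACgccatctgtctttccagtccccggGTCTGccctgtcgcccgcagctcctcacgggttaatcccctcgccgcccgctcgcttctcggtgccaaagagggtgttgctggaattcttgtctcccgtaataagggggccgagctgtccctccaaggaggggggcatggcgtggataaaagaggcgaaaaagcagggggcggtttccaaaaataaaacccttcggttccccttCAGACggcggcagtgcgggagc
The *Inhba* window held a TATA box, a letter pattern found in 13.6% of all 32851 RefSeq mouse windows of this length. The *Ltbp1* window held a CRE, found in 1.79% of all windows, with a SMAD element 1 base after it, and the *Ltbp2* window held 3 SMAD elements. Of the 10 windows of 8 of the genes, 7 held a SMAD element, against 49.6% of all windows. The AP-1 element TGANTCA, present in 7.81% of all windows, was in 0 of these 10. The GC content was 47.7% in the *Inhba* window, 58.7% in that of *Ltbp1* and 61.0% in that of *Ltbp2*, with a median of 52.7% over all windows. These matches are letters in a window, not measured binding.

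The total counts ranged from 15002873 to 19840860 per sample, and 3 counts, taken as the floor of detection, corresponded to 0.130 to 0.234 CPM (counts scaled to library size with TMM factors). Of 10 glioma and precursor markers, 9 had counts, all above the floor in every sample, and they summed to 4416 to 5930 CPM in NPCTKO and 1750 to 2196 CPM in NSCHRas-shp53. The other, *Sox2*, had 0 counts in every sample but 51.1 to 134 FPKM (fragments per kilobase of transcript, scaled to library size). Of 14 markers of tumor-associated macrophages and microglia (TAMs), *P2ry12* had 0 counts in every sample but 2.48 to 32.8 FPKM. The other 13 had counts and were above the floor in every sample, the sorted ones included. Their summed level was 19187 and 23996 CPM in NPCTKO samples 1 and 2, 519 and 3254 CPM in samples 3 and 4, and 2641 to 7616 CPM in the NSCHRas-shp53 samples. Each gene's deviation from its own mean over all samples was also related to transcript GC content across genes. NPCTKO samples 1 and 2 stood apart in this relation (Spearman 0.56 and 0.48, against -0.37 to -0.16 in the other 5 samples). The deviations of a gene cancel out over the samples, so opposite signs are partly built in.

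Across the models, 3 of the 9 genes were called higher in NSCHRas-shp53 and 0 lower (edgeR quasi-likelihood test, Benjamini-Hochberg adjusted p under 0.05). Among all 16091 genes tested, 13.1% were called, 7.77% higher and 5.28% lower in NSCHRas-shp53. At an unadjusted p under 0.05, 4 of the 9 were higher and 1 lower, beside 30.3% of all genes tested, 15.2% higher and 15.1% lower. DESeq2 called 4 higher and 0 lower, beside 12% higher and 10.8% lower of 16027 genes. The median log2 fold change (NSCHRas-shp53 minus NPCTKO) was 0.05 over the 9 genes and -0.10 over all genes tested. Without NPCTKO samples 3 and 4 the call was made for 7 of the 9 genes, 4 higher and 3 lower, but also for 53.9% of all 16601 genes tested in that setting, 27.9% higher and 26.0% lower.

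**Figure D1:**
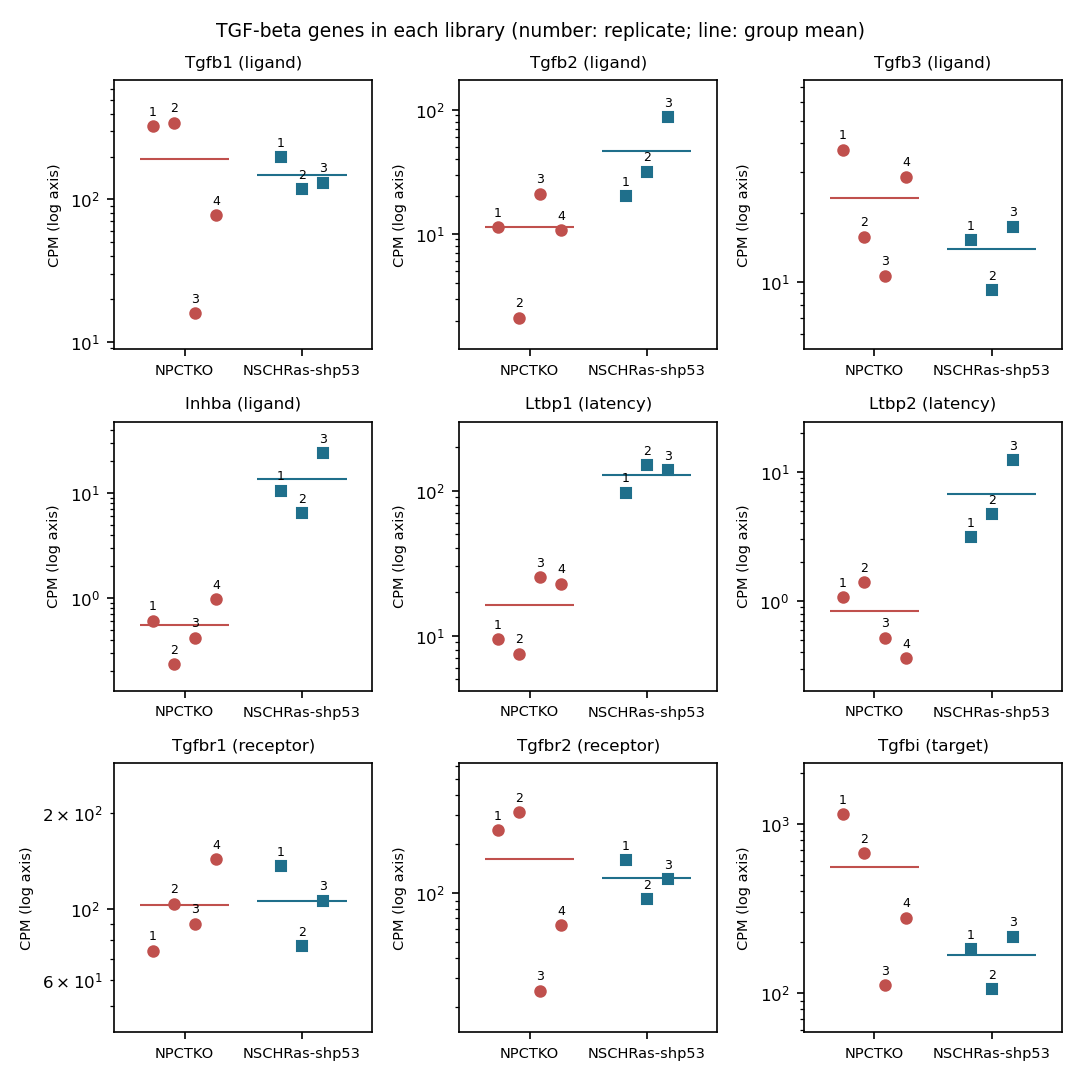
CPM (log axis) of the 9 genes in each of the 7 samples, with replicate numbers and a line at each group mean. *Inhba*, *Ltbp1* and *Ltbp2* lie higher in all 3 NSCHRas-shp53 samples than in all 4 NPCTKO samples, and the points of the other 6 genes overlap between the models.

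Among the ligands, *Inhba*, which encodes the subunit of activin A, showed the widest gap between the models. The gene lies on chromosome 13 of mm10 from 16011851 to 16027211. Its counts were 9, 3, 8 and 16 in NPCTKO samples 1 to 4, that is 0.605, 0.234, 0.417 and 0.967 CPM, with sample 2 at the floor. In NSCHRas-shp53 samples 1 to 3 they were 192, 126 and 556, or 10.5, 6.39 and 24.0 CPM. Every whole-tissue sample was above every sorted sample, and sample 3 was the highest of all. The group means were 0.556 ± 0.313 CPM (SD, n = 4) and 13.6 ± 9.24 CPM (SD, n = 3), a log2 fold change of 4.59 ± 0.67 (SE; adjusted p = 0.0068, edgeR). In bulk samples, fewer cells of a type and less RNA per cell cannot be told apart.

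*Tgfb2*, the ligand that needs the co-receptor betaglycan for strong receptor binding, was not called by edgeR. It lies on chromosome 1 from 186622792 to 186705989 and was read at 11.2, 2.11, 21.1 and 10.6 CPM in NPCTKO and at 20.1, 31.6 and 86.7 CPM in NSCHRas-shp53. The groups overlapped in CPM through NPCTKO sample 3, which lay just above NSCHRas-shp53 sample 1, whereas in FPKM the same 2 samples were narrowly apart (4.34 and 4.58 FPKM). The log2 fold change was 2.03 ± 0.74 (SE; adjusted p = 0.11, edgeR). The gene was called by DESeq2 (adjusted p = 0.036) and in edgeR without NPCTKO samples 3 and 4 (2.77, adjusted p = 0.030). It was not called in the other 16 of 18 alternatives. The change was smallest, at 1.203 (adjusted p = 0.42, edgeR), without NSCHRas-shp53 sample 3, the sample with the highest level. Without NPCTKO samples 1 and 2 it was 1.57 (adjusted p = 0.15, edgeR). Of its span, 430 bases overlap 2 other gene models, which the non-directional library kit cannot separate by strand.

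*Tgfb1*, the main isoform of immune cells, and *Tgfb3* were not called. *Tgfb1* (chromosome 7, 25687002 to 25705077) was read at 326, 345, 15.9 and 77.7 CPM in NPCTKO samples 1 to 4 and at 198, 118 and 131 CPM in NSCHRas-shp53. The sorted samples spanned the whole-tissue samples on both sides, with a 21.7-fold range against 1.68-fold. Its log2 fold change was -0.36 ± 0.86 (SE; adjusted p = 0.82, edgeR). This direction was not stable: it was -1.18 (adjusted p = 0.010, edgeR) without NPCTKO samples 3 and 4 and 1.71 (adjusted p = 0.11, edgeR) without samples 1 and 2. It was also above 0 without sample 1 alone (0.073) or sample 2 alone (0.14) and without TMM factors (0.050).

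*Tgfb3* (chromosome 12, 86056744 to 86079041) was read at 37.5, 15.8, 10.7 and 28.7 CPM in NPCTKO and at 15.2, 9.23 and 17.4 CPM in NSCHRas-shp53. The groups overlapped, and the log2 fold change was -0.73 ± 0.49 (SE; adjusted p = 0.35, edgeR). A stretch of 5757 bases of its 22298-base span overlaps other gene models, *Ttll5* among them, and it holds 2 rows in the FPKM table, which were summed.

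Per transcript length, *Tgfb1* was the most abundant of the 3 TGF-β isoforms in every sample. Its share of their summed FPKM (fragments per kilobase of transcript, scaled to library size) was 83.9%, 92.1%, 43.5% and 64.3% in NPCTKO samples 1 to 4 and 85.9%, 82.2% and 67.2% in NSCHRas-shp53. *Tgfb2* contributed 2.19%, 0.439%, 25.4% and 4.75% in NPCTKO and 4.74%, 8.72% and 21.7% in NSCHRas-shp53. *Tgfb3* contributed 7.46% to 31.1% in NPCTKO and 9.11% to 11.1% in NSCHRas-shp53. The sorted samples thus differed among themselves in isoform makeup, with sample 3 the most even.

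Of the latency proteins, *Ltbp1*, which links latent TGF-β to the matrix, was read at 9.42, 7.49, 25.3 and 22.7 CPM in NPCTKO and at 96.6, 150 and 139 CPM in NSCHRas-shp53. The groups did not overlap, and NPCTKO samples 3 and 4 were above samples 1 and 2. The means were 16.2 ± 9.07 CPM (SD, n = 4) and 128 ± 28.0 CPM (SD, n = 3), a 7.91-fold ratio, with a log2 fold change of 2.98 ± 0.48 (SE; adjusted p = 0.0087, edgeR). The gene spans chromosome 17 from 75005568 to 75392512, with 579 bases inside its span shared with 1 other gene model.

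*Ltbp2*, whose product joins elastic microfibrils rather than latent TGF-β, was low in both models. On chromosome 12 from 84783212 to 84876532, it had 16, 18, 10 and 6 counts in NPCTKO (1.08, 1.40, 0.521 and 0.363 CPM) and 57, 93 and 284 in NSCHRas-shp53 (3.12, 4.72 and 12.3 CPM). All 3 whole-tissue samples were above the sorted ones, most so sample 3. At its 5′ end, 764 bases overlap another gene model. The log2 fold change was 3.00 ± 0.68 (SE; adjusted p = 0.027, edgeR). The call was lost without NPCTKO sample 4 (adjusted p = 0.051), NSCHRas-shp53 sample 2 (0.070) or NSCHRas-shp53 sample 3 (0.13), and at 2.54 with a replicate block (adjusted p = 0.12), all from edgeR.

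The summed markers of vessel cells, fibroblasts, astrocytes and neurons were higher in NSCHRas-shp53, as were *Inhba*, *Ltbp1* and *Ltbp2*. The summed level of 11 mural cell markers was 27.4 to 39.6 CPM in NPCTKO, with 7 to 10 of the 11 above the floor, and 293 to 459 CPM in NSCHRas-shp53, with all 11 above it. *Kcnj8* and *Tbx18* were at 0 counts in NPCTKO sample 2 and *Higd1b* was at 0 in sample 3. The 10 fibroblast markers summed to 68.3 to 166 and 306 to 749 CPM, with 8 or 9 of the 10 above the floor in NPCTKO and all 10 in NSCHRas-shp53. *Dcn* was at 0 counts in NPCTKO sample 2 and *Slc6a13* at 0 in sample 3. The 11 endothelial markers, 8 to 11 of them above the floor in NPCTKO and all 11 in NSCHRas-shp53, summed to 31.2 to 282 and 538 to 1030 CPM. The 8 astrocyte markers with counts, 7 or 8 above the floor, summed to 195 to 639 and 2886 to 3637 CPM, and the 10 neuron markers, 9 or 10 above the floor, to 47.3 to 64.1 and 526 to 1451 CPM. A further astrocyte marker, *Gfap*, had 0 counts in every sample but 19.1 to 86.9 FPKM in NPCTKO and 716 to 1096 FPKM in NSCHRas-shp53. The 7 platelet and red cell markers with counts summed to 20.3 to 63.2 CPM in NPCTKO, with 3 to 5 above the floor. In NSCHRas-shp53 samples 1 to 3 they summed to 217, 126 and 34.1 CPM, with 6 or 7 above it. Within NSCHRas-shp53, sample 1 had the highest mural, endothelial, astrocyte and neuron sums but the lowest *Ltbp1* and *Ltbp2* levels. Sample 3 was the highest in the fibroblast sum, *Inhba* and *Ltbp2*. The part of these cells in the 3 differences between the models was not tested. With the GC and length trends removed, all 3 genes were called higher, with log2 fold changes of 3.96 for *Inhba*, 3.07 for *Ltbp1* and 3.26 for *Ltbp2*. In that setting 3046 of all 16091 genes were called, 1696 higher and 1350 lower.

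Both receptor genes were well expressed and not called. *Tgfbr1*, the type I receptor (chromosome 4, 47353222 to 47414931), was read at 74.1, 104, 90.3 and 144 CPM in NPCTKO and at 137, 76.6 and 106 CPM in NSCHRas-shp53. It was the most even of the 9 genes within the sorted samples, which spanned 1.94-fold, and the whole-tissue samples spanned 1.78-fold. The groups overlapped throughout (log2 fold change 0.05 ± 0.33, SE; adjusted p = 0.94, edgeR), and the sign turned in 7 of 18 alternatives, among them the removal of GC and length trends (-0.68, adjusted p = 0.31, edgeR) and leaving out NPCTKO sample 1 (-0.048), NPCTKO sample 3 (-0.012) or NSCHRas-shp53 sample 1 (-0.14).

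*Tgfbr2*, the type II receptor (chromosome 9, 116084293 to 116175360), was read at 242, 312, 25.3 and 63.6 CPM in NPCTKO and at 158, 91.3 and 122 CPM in NSCHRas-shp53. Samples 1 and 2 of NPCTKO lay above and samples 3 and 4 below all whole-tissue samples. The log2 fold change was -0.38 ± 0.76 (SE; adjusted p = 0.78, edgeR). It was -1.17 (adjusted p = 0.012, edgeR) without NPCTKO samples 3 and 4, and 1.51 (adjusted p = 0.062, edgeR) without samples 1 and 2. It was also above 0 without sample 2 alone (0.22) and without TMM factors (0.028).

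*Tgfbi*, a secreted matrix protein named for its induction by TGF-β, was the one gene of the 9 with an unadjusted p under 0.05 in the direction of NPCTKO. On chromosome 13 from 56609603 to 56639339, it was read at 1142, 671, 111 and 279 CPM in NPCTKO and at 181, 105 and 215 CPM in NSCHRas-shp53. NPCTKO sample 3 lay within the range of the whole-tissue samples and the other 3 lay above it. The means were 551 ± 459 CPM (SD, n = 4) and 167 ± 56.2 CPM (SD, n = 3), with a log2 fold change of -1.72 ± 0.74 (SE; adjusted p = 0.16, edgeR). The gene was called lower in NSCHRas-shp53 without NPCTKO sample 3 (-2.06, adjusted p = 0.043, edgeR) and without samples 3 and 4 (-2.45, adjusted p = 0.0024, edgeR). The change was only -0.19 (adjusted p = 0.80, edgeR) without NPCTKO samples 1 and 2, and -1.04 (adjusted p = 0.35, edgeR) without sample 1 alone.

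*Tgfb1*, *Tgfbr2* and *Tgfbi* were all highest in NPCTKO samples 1 and 2, the samples with the most TAM marker RNA. *Tgfb1* and *Tgfbr2* followed each other over the 7 samples (Pearson r of log2(CPM + 1) = 0.985). This is a description without a test, since the samples differ in model and in TAM content. The order of the 4 sorted samples was the same for *Tgfb1*, *Tgfbr2* and the summed TAM markers, with sample 2 the highest and sample 3 the lowest. For *Tgfbi*, sample 1 was above sample 2. The 7 granulocyte and monocyte markers also moved with them, at 566 and 395 CPM in NPCTKO samples 1 and 2, 10.6 and 75.7 CPM in samples 3 and 4, and 81.1 to 138 CPM in NSCHRas-shp53, with 3 to 7 of the 7 above the floor in NPCTKO and 6 in each NSCHRas-shp53 sample, and with *Ly6g* at 0 counts in NPCTKO samples 3 and 4 and NSCHRas-shp53 samples 1 and 2 and *Retnlg* at 0 in NPCTKO sample 2. The 7 T cell markers, all above the floor in every sample, had the same order in the sorted samples as *Tgfb1*, at 42.0, 42.7, 5.37 and 16.4 CPM, and were at 24.3, 18.0 and 52.0 CPM in NSCHRas-shp53. The same samples differed in GC trend, and the part of TAMs, of these other leukocytes or of GC content in these levels was not tested.

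**Figure D2:**
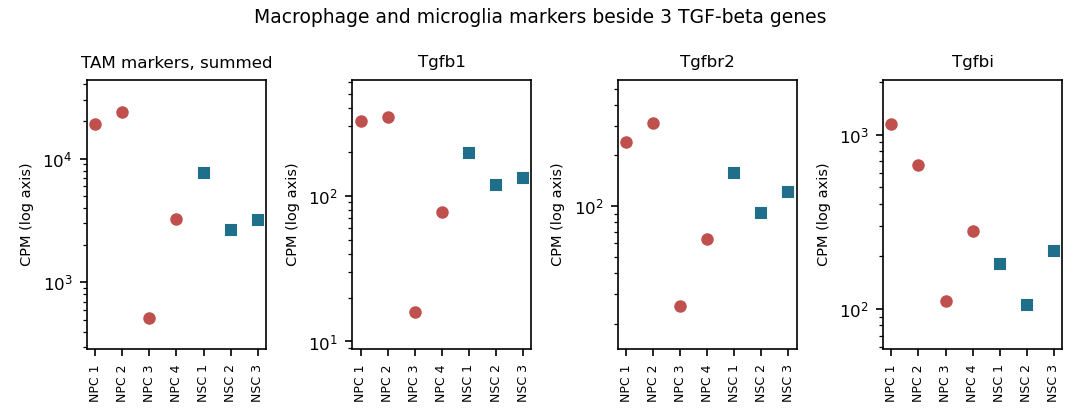
Summed CPM of 13 TAM markers and CPM of *Tgfb1*, *Tgfbr2* and *Tgfbi* (log axes) in the 4 NPCTKO (NPC) and 3 NSCHRas-shp53 (NSC) samples. In all 4 panels NPCTKO samples 1 and 2 are the highest of the 7, and NPCTKO sample 3 is the lowest in all but *Tgfbi*, for which NSCHRas-shp53 sample 2 lies slightly lower.

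The 9 genes could be ranked within each model by FPKM. In NPCTKO the order was *Tgfbi* (193 ± 164 FPKM, SD, n = 4), *Tgfb1* (69.1 ± 58.3), *Tgfbr2* (32.5 ± 28.0), *Tgfbr1* (21.4 ± 5.61), *Tgfb3* (12.4 ± 6.12), *Tgfb2* (2.57 ± 1.57), *Ltbp1* (2.2 ± 1.2), *Inhba* (0.264 ± 0.0834) and *Ltbp2* (0.0816 ± 0.0305). The ranges of neighbours overlapped from *Tgfbi* down to *Tgfb3* and between *Tgfb2* and *Ltbp1*, and were apart between *Tgfb3* and *Tgfb2*, between *Ltbp1* and *Inhba*, and between *Inhba* and *Ltbp2*. Within each of the 4 sorted samples, *Tgfbi* was above *Tgfb1* and *Tgfb1* above *Tgfbr2*.

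In NSCHRas-shp53 the order was *Tgfb1* (69.4 ± 11.8 FPKM, SD, n = 3), *Tgfbi* (58.4 ± 18.3), *Tgfbr2* (25.8 ± 5.60), *Ltbp1* (18.3 ± 4.78), *Tgfbr1* (18.0 ± 7.24), *Tgfb2* (10.5 ± 8.52), *Inhba* (9.0 ± 5.86), *Tgfb3* (8.79 ± 1.76) and *Ltbp2* (0.83 ± 0.677). The ranges of neighbours were apart between *Tgfbi* and *Tgfbr2* and between *Tgfb3* and *Ltbp2*, and overlapped at the other 6 steps. *Ltbp1* thus stood beside the receptors in whole tumor tissue and with the low genes in sorted cells. The mean FPKM of *Tgfb1* was nearly equal in the 2 models, whereas its log2(FPKM + 1) mean was 0.65 higher in NSCHRas-shp53 (adjusted p = 0.66, limma), opposite in sign to the count-based fold change.

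**Figure D3:**
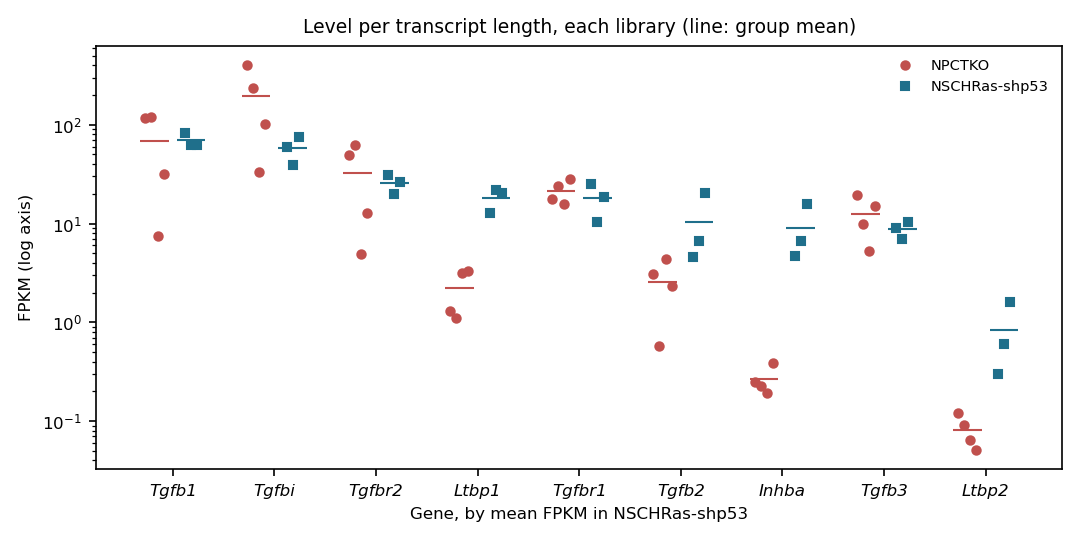
FPKM (log axis) of the 9 genes in each sample, ordered by mean FPKM in NSCHRas-shp53, with a line at each group mean. *Ltbp1*, *Inhba*, *Ltbp2* and, narrowly, *Tgfb2* are apart between the models on this scale, and the NPCTKO points of *Tgfb1*, *Tgfbr2* and *Tgfbi* spread over more than 12-fold.

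The genes most like each of the 9 over the 7 samples were sought among the 10871 genes with a mean of at least 10 CPM, by Pearson r of log2(CPM + 1), as a description. *Tgfb1* was most like *Dhrs3* (r = 0.996), a retinal reductase gene, and *Ctsb* (0.996), encoding the lysosomal protease cathepsin B. *Tgfbr2* was most like *Tmem173* (0.995), encoding the innate immune adaptor STING, and *Selplg* (0.994), encoding the leukocyte ligand of P-selectin. *Tgfbi* was most like *Itgb7* (0.995), a leukocyte integrin subunit, and *Esyt1* (0.993). *Inhba* was most like *Grin2b* (0.997), a neuronal glutamate receptor subunit, and *Dcn* (0.992), encoding the matrix proteoglycan decorin.

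*Ltbp1* was most like *Btc* (0.997), encoding the EGF receptor ligand betacellulin, and *Mapk11* (0.996), encoding p38β. *Ltbp2* was most like *Pla1a* (0.977) and the basement membrane collagen gene *Col15a1* (0.976). *Tgfb2* was most like *Srgap3* (0.984) and *Frmd4a* (0.970), *Tgfb3* like *Rassf1* (0.949) and *Ppfia1* (0.912), and *Tgfbr1* like the transcription factor gene *Mitf* (0.952) and *Erlin1* (0.949).

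Of 94 other genes of the pathway in 6 lists, 87 were tested, and 21 were called higher and 1 lower in NSCHRas-shp53 (edgeR), beside 7.77% higher and 5.28% lower of all genes tested. The count fell to 10 higher without NSCHRas-shp53 sample 1, 6 without sample 2 and 7 without sample 3. Of all genes tested, 704 of 16738, 459 of 16637 and 415 of 16521 were called higher in these settings. With all samples it was 1251 of 16091. The pathway count rose to 38 higher and 9 lower without NPCTKO samples 3 and 4, where 53.9% of all genes were called. The median log2 fold change over the 87 genes was 0.48, against -0.10 over all genes tested. The lists were chosen with earlier results of these data known, so their shares are not those of a blind choice.

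**Figure D4:**
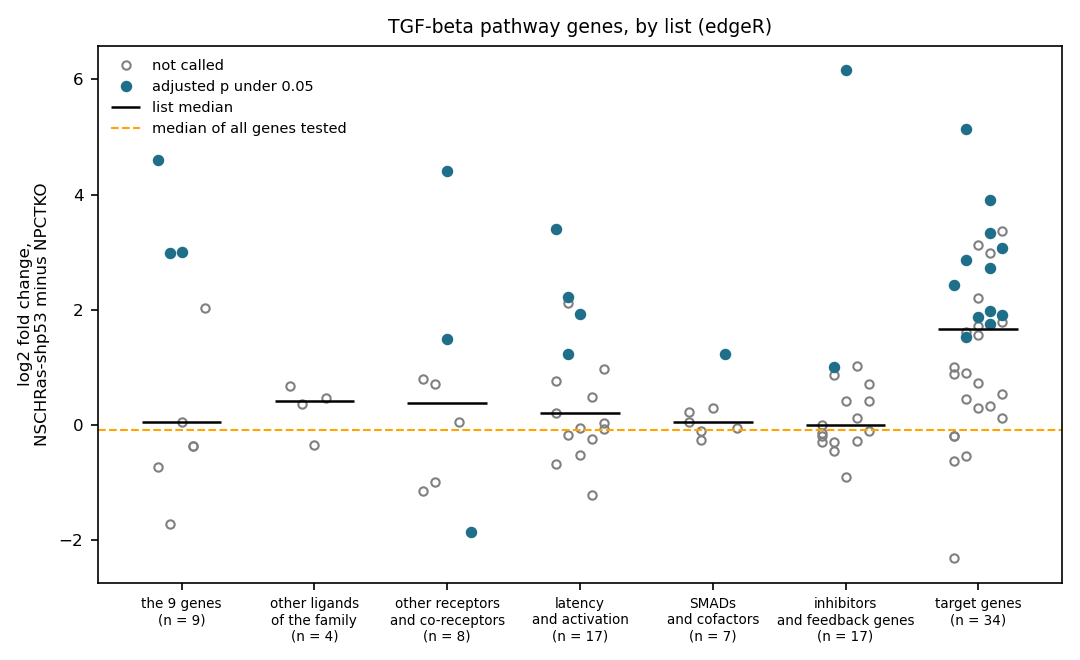
Log2 fold change (NSCHRas-shp53 minus NPCTKO) of the 9 genes and of the tested genes of 6 pathway lists, filled where the adjusted p was under 0.05 (edgeR). Lines mark list medians and the dashed line the median of all genes tested (-0.10), and the target genes have the highest list median (1.66).

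Of 7 other ligand genes of the family, 4 were tested and 0 were called in either direction. At an unadjusted p under 0.05, 1 was higher and 0 were lower (15.2% and 15.1% of all genes), and DESeq2 called 0 (22.8% of all genes). The log2 fold changes were 0.68 for *Gdf11*, 0.47 for *Lefty1*, 0.35 for *Inha* and -0.35 for *Inhbb*, with adjusted p from 0.14 to 0.73 (edgeR). *Inhbb*, the other activin subunit gene among them, was read at 17.7 ± 7.86 CPM (SD, n = 4) in NPCTKO and 13.9 ± 1.45 CPM (SD, n = 3) in NSCHRas-shp53, and its groups overlapped.

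Of 8 other receptors and co-receptors, all tested, 2 were called higher and 1 lower, 3 of 8 beside 13.1% of all genes. *Acvr1c*, encoding the activin receptor ALK7, had 0, 0, 13 and 4 counts in NPCTKO and 55, 108 and 173 in NSCHRas-shp53 (log2 fold change 4.41 ± 1.07, SE; adjusted p = 0.033, edgeR). The samples of the 2 models did not overlap, and NPCTKO samples 1 and 2 were without a read. *Tgfbr3*, encoding betaglycan, rose from 5.79 ± 2.03 to 16.4 ± 3.28 CPM (SD, n = 4 and 3; log2 fold change 1.5, adjusted p = 0.044, edgeR). *Acvr2b*, a type II activin receptor gene, was read at 12.8, 9.05, 17.3 and 9.79 CPM in NPCTKO and at 3.55, 3.25 and 3.24 CPM in NSCHRas-shp53 (log2 fold change -1.87 ± 0.40, SE; adjusted p = 0.021, edgeR). It was the 1 pathway gene called lower. *Acvr1*, encoding ALK2, was at 45.8 ± 13.4 and 79.4 ± 13.3 CPM (SD, n = 4 and 3) and was not called (adjusted p = 0.12, edgeR). The calls of *Acvr1c*, *Tgfbr3* and *Acvr2b* were lost when any 1 of the NSCHRas-shp53 samples was left out, and also without NPCTKO sample 4 for *Acvr1c*, sample 1 for *Acvr2b*, and sample 1, 2 or 4 for *Tgfbr3*. The highest adjusted p over all alternatives was 0.13 for *Acvr1c*, 0.10 for *Acvr2b* and 0.19 for *Tgfbr3*.

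Of 18 genes of latency and activation, 17 were tested, and 4 were called higher and 0 lower, 23.5% of the list beside 13.1% of all genes. At an unadjusted p under 0.05, 5 were higher and 0 lower (15.2% and 15.1% of all genes), and DESeq2 called 5 higher and 0 lower (12% and 10.8% of all genes). *Ltbp3*, a latent TGF-β binding protein gene, was read at 165, 119, 110 and 152 CPM in NPCTKO and at 282, 360 and 318 CPM in NSCHRas-shp53 (log2 fold change 1.23 ± 0.28, SE; adjusted p = 0.027, edgeR). It was apart between the models, like *Ltbp1* and *Ltbp2*. *Lrrc32*, which tethers latent TGF-β to the cell surface, rose by 3.40 on the log2 scale (adjusted p = 0.030), and the integrin genes *Itgb1* and *Itgb3* by 2.21 (adjusted p = 0.031) and 1.93 (adjusted p = 0.034), all from edgeR. *Lrrc32* was read at 2.76, 4.99, 0.521 and 5.56 CPM in NPCTKO and at 70.1, 21.2 and 18.1 CPM in NSCHRas-shp53. All 4 calls were lost without NSCHRas-shp53 sample 2 or 3, those of *Ltbp3*, *Lrrc32* and *Itgb3* also without sample 1, and each without at least 1 of NPCTKO samples 1, 2 and 4. With NPCTKO samples 1 and 2 both left out, the calls of *Lrrc32* and *Itgb1* were lost as well. The highest adjusted p over all alternatives was 0.11 for *Ltbp3* and *Lrrc32*, 0.13 for *Itgb1* and 0.15 for *Itgb3*.

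Of 8 SMADs and cofactors, 7 were tested, and 1 was called higher and 0 lower. This was 14.3% of the list, close to the 13.1% of all genes, and the counts were the same at an unadjusted p under 0.05 (15.2% higher and 15.1% lower of all genes) and with DESeq2 (12% and 10.8%). That gene was *Smad3*, encoding a receptor-activated SMAD, at 97.1, 97.5, 54.3 and 101 CPM in NPCTKO and 208, 198 and 211 CPM in NSCHRas-shp53 (log2 fold change 1.23 ± 0.30, SE; adjusted p = 0.032, edgeR). The whole-tissue samples were close to each other and apart from the sorted ones. The call was lost without NPCTKO sample 1 or 2 or any 1 NSCHRas-shp53 sample, with an adjusted p of up to 0.12 over all alternatives. *Smad2* (0.28), *Zfyve9* (-0.27), which encodes the SMAD anchor SARA, and the coactivator gene *Crebbp* (0.22) had adjusted p from 0.61 to 0.70 (edgeR).

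Of 17 inhibitors and feedback genes, all tested, 2 were called higher and 0 lower. This was 11.8% of the list, below the 13.1% of all genes, and the counts were the same at an unadjusted p under 0.05 (15.2% higher and 15.1% lower of all genes) and with DESeq2 (12% and 10.8%). *Dcn*, whose product decorin binds TGF-β, had 2, 0, 14 and 12 counts in NPCTKO and 311, 261 and 1387 in NSCHRas-shp53 (log2 fold change 6.16 ± 1.02, SE; adjusted p = 0.0095, edgeR). It is also one of the fibroblast markers given above. *Nedd4l*, a ubiquitin ligase gene, changed by 1.01 on the log2 scale (adjusted p = 0.043, edgeR) and was called in 6 of 18 alternatives, not without NPCTKO sample 1, 2 or 4 or any 1 NSCHRas-shp53 sample (adjusted p of up to 0.28, edgeR). *Fst*, encoding the activin antagonist follistatin, differed by 1.02 on the log2 scale (adjusted p = 0.25) and *Bgn* by 0.87 (adjusted p = 0.32), both from edgeR, and neither was called.

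Of 36 target genes, 34 were tested, and 12 were called higher and 0 lower, 35.3% of the list beside 13.1% of all genes. At an unadjusted p under 0.05, 20 were higher and 1 lower (15.2% and 15.1% of all genes), and DESeq2 called 18 higher and 1 lower (12% and 10.8% of all genes). The count fell to 5 higher without NSCHRas-shp53 sample 2 and to 6 without sample 3. Of all genes tested, 459 of 16637 and 415 of 16521 were called higher there, against 1251 of 16091 with all samples. *Fn1*, encoding fibronectin, was read at 164, 107, 122 and 201 CPM in NPCTKO and at 1795, 1457 and 3414 CPM in NSCHRas-shp53 (log2 fold change 3.90 ± 0.47, SE; adjusted p = 0.0039, edgeR). The lowest whole-tissue sample was well above the highest sorted one.

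*Col1a2*, a fibrillar collagen gene, was read at 24.8, 15.9, 18.2 and 16.0 CPM in NPCTKO and at 129, 130 and 310 CPM in NSCHRas-shp53 (log2 fold change 3.34 ± 0.40, SE; adjusted p = 0.0038, edgeR). *Cdkn2b*, a cell cycle inhibitor gene, was at 14 to 28.0 CPM in NPCTKO and 79.7 to 149 CPM in NSCHRas-shp53 (log2 fold change 2.43 ± 0.36, SE; adjusted p = 0.0071, edgeR). *Cnn1*, a smooth muscle gene, had only 8, 1, 2 and 6 counts in NPCTKO and 182, 334 and 59 in NSCHRas-shp53 (log2 fold change 5.14 ± 0.87, SE; adjusted p = 0.010, edgeR). All 4 genes were called in each of 18 alternatives. Of the 12 called target genes, 2 are also in the fibroblast marker list used here. The smooth muscle gene *Cnn1* is in neither the mural nor the fibroblast list. The mural and fibroblast marker levels given above moved the same way, with their part in the target genes not tested.

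*Timp1* and *Timp3*, which encode metalloproteinase inhibitors, had 0 counts in every sample and were read from the FPKM table. *Timp1* was at 3.71, 3.86, 14 and 9.21 FPKM in NPCTKO and at 325, 1265 and 909 FPKM in NSCHRas-shp53, without overlap. *Timp3* was at 32.5, 31.3, 37.0 and 97.3 FPKM in NPCTKO and at 47.4, 40.8 and 96.1 FPKM in NSCHRas-shp53, and its groups overlapped.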

How the data were processed

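Bulk RNA-seq was analysed for 4 NPCTKO and 3 NSCHRas-shp53 samples. Per the labels, libraries were made from poly(A) RNA with a non-directional kit, so strand was not kept. For the deposited raw counts, the authors trimmed reads with Cutadapt and aligned them to mm10 using TopHat 2.1.1. The counting step was not given in the sources used here. Deposited FPKM values came from Cufflinks 2.2.1, run by the authors, and rows with 1 gene name were summed by name. The table of counts also gives gene lengths and positions by the authors.

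Counts were compared with edgeR 4.0.16 (TMM factors, filterByExpr, quasi-likelihood test) in R 4.3.3 over all 16091 genes that passed the filter, all 9 members included, in the direction NSCHRas-shp53 minus NPCTKO, with Benjamini-Hochberg adjusted p under 0.05 as the threshold. The test was also run on simulated counts of independent samples. These lack the split among the NPCTKO samples, so that run cannot show how the test behaves with it. DESeq2 1.42.0 and limma 3.58.1 on log2(FPKM + 1) or log2(FPKM + 0.1), of genes with at least 0.5 FPKM in 3 samples, were alternatives, with other scalings, other filters on low counts, a replicate block and left-out samples. The removal of GC and length trends (loess span 0.3, on the longest GENCODE transcript) was added after the data were seen. A floor of 3 counts covers counting error only. Summaries were made in Python 3.11.15 (pandas 2.3.3, numpy 2.4.6).

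The members and the lists were chosen with earlier results of these data known. The genes named are the 9 members, of each pathway list the 4 with the smallest p and all of a list with at most 5 tested, and for each member the 2 genes with the highest r. *Timp1* and *Timp3* were named after their values were seen.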

Additional observations from a re-analysis of the deposited data

Results flagged for a closer look

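Within the 4 NPCTKO samples, 2 of 42 sets of values of the genes named had a sample that stood apart by Dixon's gap over range at the 95% level, where chance gives about 1 in 20. The *Smad3* level of NPCTKO sample 3 was 54.3 CPM, below the other 3 samples (gap over range 0.92). The *Fst* level of NPCTKO sample 3 was 4.69 CPM, above the other 3 samples (gap over range 0.87) and within the range of the NSCHRas-shp53 samples. The groups of 3 NSCHRas-shp53 samples were not examined in this way.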

How the results depend on the processing

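Each of the 9 genes was recomputed under 18 alternatives (16 for *Ltbp2*, which was below the FPKM minimum). *Inhba* and *Ltbp1* stayed called in the same direction in all 18, with log2 fold changes of 2.83 to 4.99 and 2.45 to 3.91, and *Ltbp2* in 12 of 16. *Tgfb3*, *Tgfb2* and *Tgfbi* kept their sign in all 18. The sign of *Tgfb1* turned to 0.13 with GC and length trends removed, 1.71 without NPCTKO samples 1 and 2, 0.69 and 0.65 in limma with pseudocounts of 0.1 and 1, and 0.050 without TMM factors. That of *Tgfbr2* turned to 1.51 without NPCTKO samples 1 and 2, 0.26 and 0.22 in limma, and 0.028 without TMM factors. That of *Tgfbr1* turned to -0.68 with GC and length trends removed, -0.10 without NPCTKO samples 1 and 2, and -0.30 and -0.29 in limma. None of these values passed the threshold. Leaving out TMM factors moved the median of all genes by 0.20 on the log2 scale. With 1 sample left out at a time, the log2 fold change ranged from -0.75 to 0.14 for *Tgfb1*, from -0.14 to 0.25 for *Tgfbr1* and from -0.73 to 0.22 for *Tgfbr2*.

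Without NPCTKO samples 3 and 4, 7 of the 9 genes were called (3 of them lower), as were 47 pathway genes (38 higher, 9 lower) and 8951 of all genes. DESeq2 called 4044 of 25061 genes, a set that includes genes not tested by edgeR. Pathway genes called lower numbered 2 with DESeq2, with GC and length trends removed and without NPCTKO samples 1 and 2, and 0 without TMM factors. Of all genes, 1861 of 25061, 1350 of 16091, 1231 of 16631 and 540 of 16091 were called lower in these settings. With 1 sample left out, 0 to 1 of the 9 genes were called lower, 6 to 25 pathway genes were called (6 to 24 higher, 0 to 1 lower), and 539 to 2595 of all genes, lowest without NSCHRas-shp53 sample 3. The cause was not tested.

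The replicate numbers did not pair the samples: deviations of same-numbered samples correlated at 0.26, -0.19 and 0.18. With the replicate block, 14 pathway genes were called (0 lower) and 1041 of all genes, *Tgfb1* turned to 0.063, and *Ltbp2* was at an adjusted p of 0.12 (edgeR). Depth limits *Inhba* and *Ltbp2* in NPCTKO, where each sample held at most 18 counts.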
